A study of Mus musculus with 6 samples.

Results

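The vasopressin receptors and the cAMP machinery behind them were followed at 10 genes in isolated collecting duct cells of male C57BL/6J mouse kidneys. The genes are the receptors Avpr2 and Avpr1a, the adenylyl cyclases Adcy3, Adcy5, Adcy6 and Adcy9, the catalytic subunits of protein kinase A (PKA) Prkaca and Prkacb, and its regulatory subunits Prkar1a and Prkar2b. They were chosen by name, for their place in the pathway, from the 24815 genes that had a counted identifier. Earlier results of these data were known when these genes and the gene lists below were chosen. Counts of called genes among them are therefore descriptive. Of the 10, 8 had counted reads and entered the test, which covered 10521 genes.

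All mice were of one inbred strain, carried no stated transgene, and differed in diet. For 5 days they ate a low-NaCl diet of 0.01 to 0.02% sodium or a high-NaCl diet of 2.4% sodium, and each diet gave 3 RNA libraries. The sources used here do not give the age of the mice, how the cells were isolated, or whether the libraries stem from separate animals. The p-values therefore reflect only how far the libraries of a diet lay apart, and that spread may be technical. The comparison asks which transcripts go with a sodium intake known to raise aldosterone, as against one known to lower it.

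Vasopressin is the pituitary hormone of water retention. In principal cells of the collecting duct it binds the V2 receptor, encoded by Avpr2, which acts through the stimulatory G protein on adenylyl cyclase; the cAMP formed releases PKA catalytic subunits from their regulatory subunits, and aquaporin 2 moves to the apical membrane. The V1a receptor, encoded by Avpr1a, couples to Gq and calcium instead, and in the collecting duct it is known mainly from the acid-base transporting intercalated cells.

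The libraries held 40101899 to 46861531 counted reads. Values are CPM (counts divided by the library total in units of 1000000 reads, with totals scaled by TMM), given as mean ± SD with n = 3, low-NaCl before high-NaCl. Positive log2 fold changes (± SE) mean higher on the low-NaCl diet, and adjusted p-values are from edgeR's quasi-likelihood test with Benjamini-Hochberg adjustment over all genes tested, called at 0.05. Mitochondrial transcripts took 16.7, 16.4 and 16.2% of counts in the low-NaCl libraries and 22.8, 17.7 and 22.0% in the high-NaCl ones. The file headers place library 1 of both diets on lane 1, the other low-NaCl libraries on lane 2 and the other high-NaCl libraries on lane 3, so only the lane 1 pair compares the diets within a lane. A fit with a lane term takes its diet difference from that pair alone, 1 library of each diet. Few genes can pass on so few libraries, so a call lost there says little about the gene. Outside that pair, lane and diet cannot be told apart. In bulk RNA of this kind, fewer cells of a type and less RNA per cell cannot be told apart either. Principal cell markers summed to 3145 to 4781 CPM in the low-NaCl libraries and to 8800 to 10946 CPM in the high-NaCl libraries, while intercalated cell markers summed to 2921 to 5671 and 1894 to 2165 CPM. The principal cell sum came mostly from Aqp2, itself a gene that vasopressin regulates, so it is no independent gauge of these cells.

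How much of each gene could be seen differed widely, because the identifiers counted were transcripts, and a read in an exon shared by several transcripts was not counted. The countable share is the share of a gene's exonic bases that belong to a single identifier. It was 100% for Avpr1a and Adcy5, 80.0% for Prkaca and 49.5% for Prkar2b. It was 23.7% for Avpr2, 20.9% for Prkacb, 10.3% for Prkar1a and 7.12% for Adcy6. Adcy3 had 62 countable bases of 4730, or 1.31%, and Adcy9 had none.

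**Figure D1:**
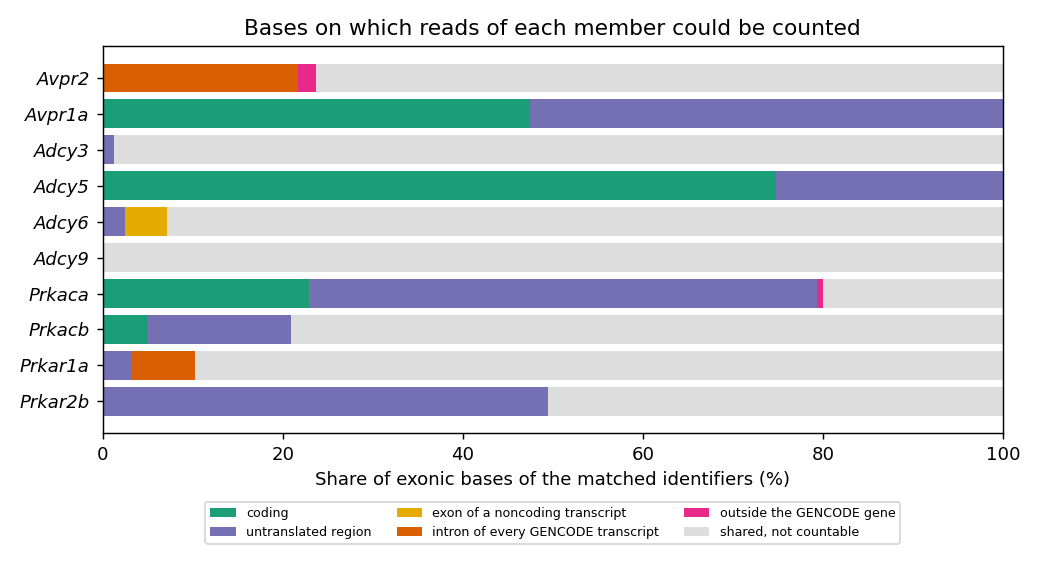
Share of the exonic bases of each gene's identifiers (x axis, percent) on which a read could be counted, coloured by what GENCODE annotates there; grey is shared sequence on which reads were lost. Avpr1a and Adcy5 were fully countable, Adcy9 had no countable base, and the coloured part of Avpr2 held intron and upstream sequence only.

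What remained countable was also of a different kind in each gene. The 564 countable bases of Avpr2 belong to 1 of its 4 identifiers, uc009tmx.1. Of these, 515 lie in introns of every GENCODE transcript, in stretches of 355 and 160 bases, and 49 lie upstream of the annotated gene, so no coding or untranslated exon base of Avpr2 was measured. The Avpr2 value therefore follows RNA that retains intron or starts upstream, and its relation to the spliced receptor mRNA was not tested. Avpr1a was counted over all of its 2671 bases, 1269 of them coding and 1401 in untranslated regions. On the opposite strand, identifiers of Arhgap4 share 76 bases with Avpr2 exons and those of Cenpo share 1045 bases with Adcy3. The counting did not use strand, so reads there could not have been assigned to either gene.

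The 2 receptors lay on opposite sides of the diet comparison. Avpr1a was higher on the low-NaCl diet, and it was the only one of the 8 tested genes whose adjusted p passed the threshold. Avpr2 was lower in every low-NaCl library than in any high-NaCl library, without passing. Of the 8 genes, 1 was called higher and 0 lower, beside 3.40% of all tested genes called in either direction (1.70% higher and 1.70% lower). At an unadjusted p under 0.05 there were 1 higher and 1 lower, beside 18.3% of all tested genes. The median log2 fold change of the 8 was 0.37, with 6 positive and 2 negative, beside -0.00 for all genes tested.

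Avpr1a (chromosome 10, 122448499 to 122453452, plus strand, build mm10, identifier uc007hge.1) measured 67.6, 116 and 154 CPM in low-NaCl libraries 1 to 3. In high-NaCl libraries 1 to 3 it measured 41.5, 45.7 and 44.9 CPM. The high-NaCl libraries lay close together, the low-NaCl libraries were spread, and the diets did not overlap. The means were 112.6 ± 43.2 and 44.0 ± 2.21 CPM, a log2 fold change of 1.35 ± 0.25 (95% interval 0.79 to 1.92, 2.56-fold, adjusted p = 0.0233 in edgeR). The counts behind it were 2722, 5112 and 6516 reads against 1511, 2391 and 1686, so counting error was small beside the spread between libraries.

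The call depended on which libraries entered the fit. Leaving out low-NaCl library 1, the lowest of its diet, gave a log2 fold change of 1.61 and an adjusted p of 0.00182, and leaving out any of the other 5 gave adjusted p-values of 0.0529 to 0.0952 in edgeR with changes of 1.06 to 1.38. The direction held in each of these fits. Within lane 1 the difference was 0.70, and with lane as a term the adjusted p was 0.352. With total-count scaling it was 0.0523.

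Avpr2 (chromosome X, 73892102 to 73895502, plus strand) measured 4.89, 3.64 and 3.09 CPM in low-NaCl libraries 1 to 3 and 6.95, 8.05 and 6.07 CPM in high-NaCl libraries 1 to 3. Each high-NaCl value lay above each low-NaCl value, and the lane 1 libraries were the closest pair by number. The means were 3.88 ± 0.924 and 7.02 ± 0.995 CPM, a log2 fold change of -0.86 ± 0.22 (95% interval -1.36 to -0.36, 1.81-fold lower, unadjusted p = 0.0035, adjusted p = 0.0713 in edgeR). The reads numbered 197, 160 and 131 against 253, 421 and 228, all on the intron and upstream stretches. The adjusted p was 0.0428 with no filter on low counts, 0.00855 with DESeq2, 0.026 with the replicate block and 0.0372 without low-NaCl library 1. It stayed above the threshold in the other 5 fits that left out a library (0.101 to 0.255, with changes of -0.95 to -0.72) and in 7 other settings (0.0642 to 0.596). The difference was -0.51 within lane 1, the 0.596 being that with lane as a term.

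**Figure D2:**
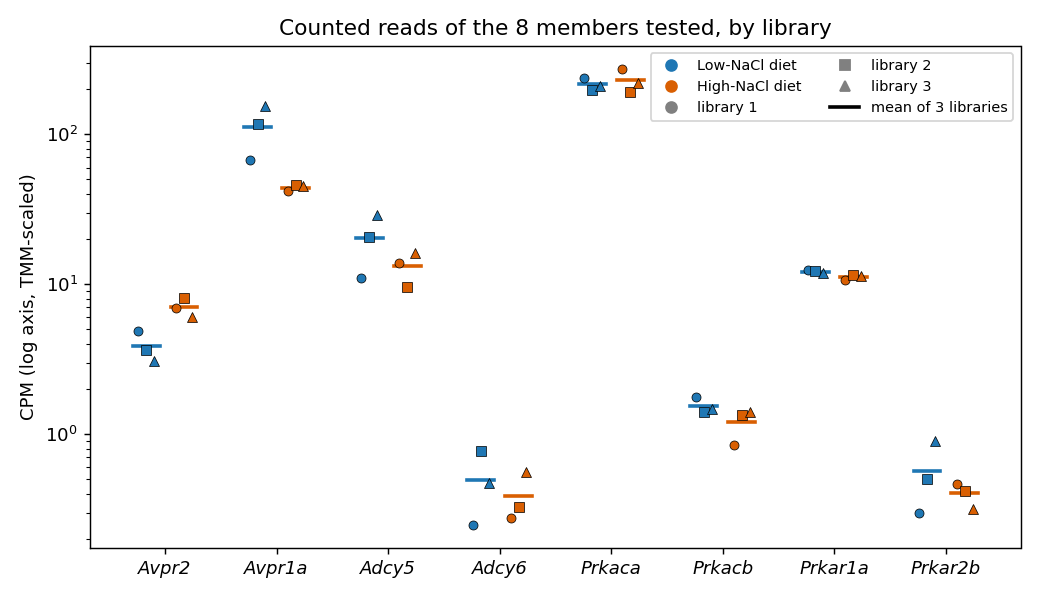
CPM of each tested gene (y axis, log scale) in each library; colour gives the diet, the marker shape the library number and the bar the mean of 3 libraries. Avpr1a and Avpr2 separate by diet in opposite directions, while Prkaca, Adcy5, Adcy6 and Prkar2b overlap.

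Within a library the ratio of the receptors does not depend on scaling. For Avpr2 it uses reads on intron and upstream bases alone, and for Avpr1a reads on exons. It is therefore not a ratio of the spliced receptor mRNAs. The log2 ratio of Avpr1a to Avpr2 was 3.79, 4.99 and 5.63 in low-NaCl libraries 1 to 3 and 2.58, 2.50 and 2.88 in the high-NaCl libraries. Every low-NaCl ratio lay above every high-NaCl ratio. The means were 4.80 ± 0.94 and 2.65 ± 0.20, a difference of 2.15, with a two-sided exact permutation p of 0.1, the smallest that 3 against 3 libraries can give (0.333 adjusted over the 5 ratios). Within lane 1 the difference was 1.21.

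Each receptor was also set against a transcript of the cell type it is known from. Here too, Avpr2 stands for its reads on intron and upstream bases only. Aqp2, the vasopressin-regulated water channel of principal cells, measured 2870 ± 744 and 6962 ± 1172 CPM. The log2 ratio of Avpr2 to Aqp2 was -9.52 ± 0.33 and -9.95 ± 0.33, a difference of 0.43 in the direction opposite to that of Avpr2 itself, with overlapping libraries (two-sided exact permutation p = 0.2). Foxi1, the forkhead transcription factor that specifies intercalated cells, measured 390 ± 121 and 147 ± 15.3 CPM. The log2 ratio of Avpr1a to Foxi1 was -1.82 ± 0.21 and -1.74 ± 0.22, a difference of -0.09 (two-sided exact permutation p = 0.5). The fitted log2 fold changes of Avpr1a and Foxi1 were 1.35 and 1.40, and neither ratio separated the diets.

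The markers of both cell types moved with the receptors. Of the 11 intercalated cell markers tested, 7 were called higher on the low-NaCl diet and 0 lower, beside 1.70% of all tested genes in each direction. Their median log2 fold change was 1.39, with none at 0 reads. The most abundant were the proton pump subunits Atp6v1b1 (1071 ± 191 and 817 ± 83.0 CPM) and Atp6v1g3 (595 ± 249 and 217 ± 18.1 CPM) and the chloride-bicarbonate exchanger Slc26a4 (807 ± 324 and 381 ± 18.4 CPM). Of those 3, Atp6v1g3 passed the test. Of the 8 principal cell markers tested, 3 were called lower (Aqp2, Aqp3 and Scnn1g) and 0 higher, with a median of -1.29, and Gata3 had no counted read. The intercalated count ranged from 1, when high-NaCl library 3 was left out, to 9, when low-NaCl library 1 was. The principal count ranged from 0, when low-NaCl library 2 was left out, to 3, and both were 0 with a lane term. Connecting tubule markers moved with Avpr2 as well. Of the 3 tested, 2 were called lower and 0 higher, with a median of -1.36 and none of the 5 at 0. The calcium-handling genes Calb1 (413 ± 59.0 and 1058 ± 147 CPM, adjusted p = 0.0066) and Trpv5 (25.0 ± 9.72 and 67.4 ± 26.7 CPM, adjusted p = 0.0419) were the ones called. That list summed to 28705 to 31829 and 30105 to 38905 CPM, nearly all from Klk1 (29414 ± 1668 and 32954 ± 4615 CPM), which was not called. Calb1 was called in each of the 6 fits without a library and Trpv5 in 1, the one without low-NaCl library 3, and neither with a lane term. The part of these lists in the receptor differences was not tested.

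V1a receptors are also known from vascular smooth muscle, and V2 receptors from the thick ascending limb. Of the 8 vascular and interstitial markers tested, 0 were called in edgeR, with 1 higher and 1 lower at an unadjusted p under 0.05. That list summed to 16.7 to 54.2 CPM in the low-NaCl libraries and 23.8 to 26.7 CPM in the high-NaCl libraries. The smooth muscle transcripts Tagln and Acta2 measured 28.0 ± 18.9 and 16.8 ± 2.79, and 4.12 ± 1.28 and 4.26 ± 1.77 CPM. Myh11, Pdgfrb, Pecam1 and Emcn had no counted read. A 0 in this list or in those that follow is not read as absence, because the countable share of such genes is not given. Thick limb and distal convoluted tubule markers summed to 167 to 195 and 101 to 165 CPM. Of 5 tested, 1 was called higher, beside 1.70% of all tested genes. It was Slc12a1, the cotransporter of the thick limb, and Cldn10 was at 0. Proximal tubule markers summed to 1766 to 3501 and 982 to 2204 CPM, mostly Aqp1 (2595 ± 871 and 1549 ± 616 CPM), with 1 of 7 tested called higher and Slc22a8 at 0.

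By the root mean square difference of centred log2 CPM over the 6 libraries, the profile nearest to that of Avpr1a among 6827 candidates was that of Oxgr1 (0.0691), and Rhou (0.103) was also among the nearest. Oxgr1, itself one of the intercalated cell markers, encodes the alpha-ketoglutarate receptor. Nearest to Avpr2 were Gm10244 (0.0915), Tceal5 (0.131) and Frs3 (0.133). All these values rest on the same 6 libraries and describe likeness only.

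**Figure D3:**
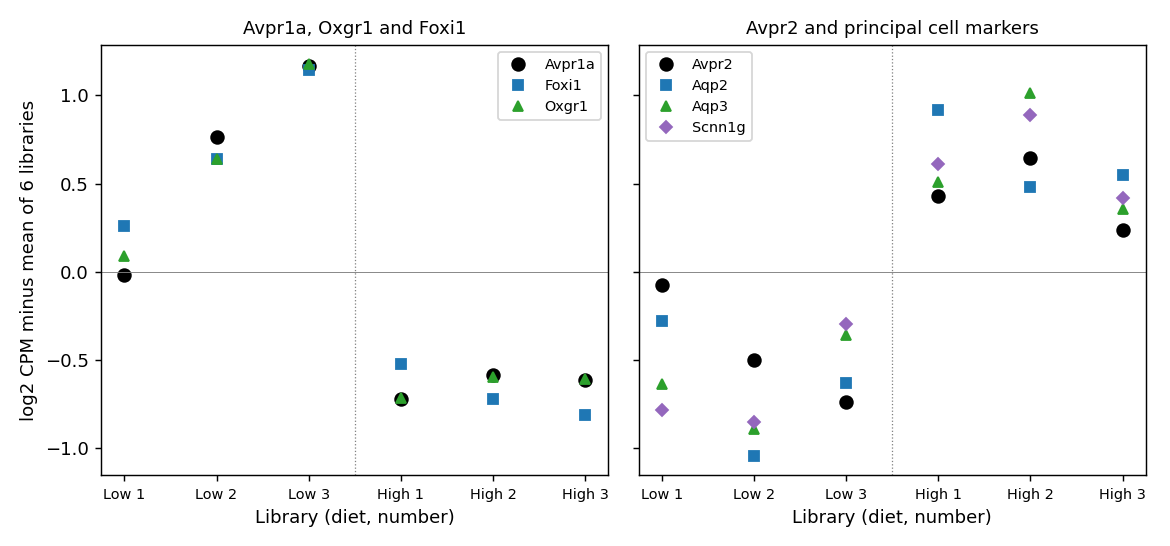
Log2 CPM of each transcript minus its mean over the 6 libraries (y axis), by library (x axis). Left, Avpr1a with its nearest profile, Oxgr1, and with Foxi1, all highest in low-NaCl library 3; right, Avpr2 with Aqp2, Aqp3 and Scnn1g, all lower in each low-NaCl library than in each high-NaCl library.

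The RefSeq table gives 1 transcription start for each receptor, and the 250 bases upstream of it are shown because the receptors differed in opposite directions. Both strands were searched for the cAMP response element TGACGTCA, its short core TGACG, the forkhead core TGTTTAC, which Foxi1 and its relatives can bind, and the steroid receptor palindrome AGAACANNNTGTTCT, to which the mineralocorticoid receptor can bind. The core TGACG is part of the full element, so each full element is also a core match. Of 32851 RefSeq starts, 1.55% held the full element in this window, 17.8% the core, 3.17% the forkhead core and 0.00913% the palindrome. Avpr1a held 1 core and Avpr2 held 1 forkhead core, each in capitals below, and neither held another of these motifs. The windows are on build GRCm38.p6, plus strand, at chr10:122448249-122448498 for Avpr1a and chrX:73891852-73892101 for Avpr2. The Avpr2 window ends with the 27 bases counted just upstream of the annotated gene.
Avpr1a: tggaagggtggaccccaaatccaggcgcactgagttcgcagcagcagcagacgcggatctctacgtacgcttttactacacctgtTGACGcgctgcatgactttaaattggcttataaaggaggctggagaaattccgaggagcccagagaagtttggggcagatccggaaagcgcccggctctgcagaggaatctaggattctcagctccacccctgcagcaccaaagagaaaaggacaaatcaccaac
Avpr2: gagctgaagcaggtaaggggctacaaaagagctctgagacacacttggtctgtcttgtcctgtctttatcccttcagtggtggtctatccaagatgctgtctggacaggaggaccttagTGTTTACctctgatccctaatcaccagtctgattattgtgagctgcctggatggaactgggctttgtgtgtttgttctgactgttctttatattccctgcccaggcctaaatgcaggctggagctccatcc

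Of the 4 adenylyl cyclases, which make cAMP, 1 was fully countable and the others hardly or not at all. Adcy5 (chromosome 16, 35154877 to 35305738), a cyclase that calcium inhibits, measured 11.1, 20.5 and 29.0 CPM in low-NaCl libraries 1 to 3. In the high-NaCl libraries it measured 13.9, 9.58 and 16.1 CPM. Low-NaCl library 1 lay among the high-NaCl libraries and the other low-NaCl libraries above them, so the diets overlapped. The log2 fold change was 0.62 ± 0.32 (95% interval -0.10 to 1.33, adjusted p = 0.350 in edgeR), and the lane 1 pair differed the other way, by -0.33.

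Adcy6 (chromosome 15, 98589973 to 98610076, minus strand), the cyclase best known for the vasopressin response of principal cells, was nearly invisible to the counting. It had 112 reads in all 6 libraries together, 71 on 159 bases of uc007xna.2 and 41 on an exon of a noncoding transcript. Of the 159 bases, 153 form an untranslated stretch, and the other 6, which are coding, lie apart from it. Adcy6 measured 0.248, 0.774 and 0.472 CPM in low-NaCl libraries and 0.275, 0.325 and 0.559 CPM in high-NaCl libraries. The diets overlapped, and the interval of the log2 fold change ran from -0.77 to 1.52, so a level 2-fold higher on the low-NaCl diet lies within it.

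Adcy3 (chromosome 12, 4133103 to 4213525), also calcium-regulated, had 0 reads on its 62 countable bases in each library. A count of 0 allows up to 3 reads, or 0.0574 to 0.0825 CPM, on those bases only. For Adcy9 (chromosome 16, 4287529 to 4420498, minus strand) no read could be counted at all. A statement on the level of either cyclase cannot be made from these counts. Of the 6 other adenylyl cyclases, 2 were tested and 0 called in edgeR, also at an unadjusted p under 0.05. Adcy2 measured 0.567 ± 0.422 and 0.249 ± 0.159 CPM and Adcy1 9.16 ± 1.65 and 10.9 ± 2.20 CPM, and Adcy4, Adcy7 and Adcy8 had no counted read.

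Rates per kilobase of countable sequence set different genes side by side only roughly. Reads that also touch shared bases are lost, which weighs most on short countable stretches. Over all countable bases, Prkaca had the highest rate of the 8 genes. It stood at 107 ± 9.89 and 114 ± 20.4 CPM per kb. Avpr1a stood at 42.1 ± 16.2 and 16.5 ± 0.829 CPM per kb. The rate of Prkar1a depended on the bases used. Over all 403 countable bases, most of them intronic, it was 30.1 ± 0.635 and 27.7 ± 0.928 CPM per kb, and over the 125 bases of its counted first exon 95.2 ± 2.43 and 86.1 ± 1.81. It lay below the low-NaCl mean of Avpr1a by the first measure and above it by the second. By the second measure it also came close to Prkaca, so the top rank is not settled. Avpr2 measured 6.87 ± 1.64 and 12.5 ± 1.76 CPM per kb, and Adcy5 on the low-NaCl diet 3.99 ± 1.77. Over all their countable bases, Prkacb (1.46 ± 0.179), Adcy6 (1.09 ± 0.577) and Prkar2b (0.340 ± 0.183) came last there. On that measure Prkacb and Adcy6 did not differ beyond their spreads. The Prkacb rate is spread over 1062 bases, while 336 of its 349 reads fell on 309 of them. Over those 309 bases its rate is higher, so its rank depends on the bases used, as for Prkar1a. A rate over introns, as for Avpr2 and for most countable bases of Prkar1a, is not comparable with a rate over mature exons.

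No PKA subunit among the 10 genes passed the test, and the intervals were narrow for Prkaca and Prkar1a only. Prkaca (chromosome 8, 83972993 to 83996443), the main catalytic subunit, measured 237, 198 and 211 CPM in low-NaCl libraries 1 to 3 and 273, 193 and 221 CPM in the high-NaCl libraries. The libraries of the diets were interleaved, with library 1 the highest of each. The log2 fold change was -0.09 ± 0.16, and its 95% interval of -0.45 to 0.27 (adjusted p = 0.816 in edgeR) leaves out a 1.81-fold change such as that fitted for Avpr2. All 55503 reads of Prkaca fell on uc009mll.2, and none on the 212 countable bases of its alternative first exon in uc009mlm.1.

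Prkacb (chromosome 3, 146729574 to 146812990, minus strand), the other catalytic subunit, could be counted only on 4 alternative first exons. Of its 349 reads, 336 (96.3%) fell on the 309 bases of uc008rrv.2, 13 on the 270 bases of uc008rru.1, and none on the other pair. It measured 1.76, 1.41 and 1.46 CPM against 0.852, 1.34 and 1.41 CPM. The diets did not overlap, but low-NaCl library 2 and high-NaCl library 3 were nearly equal, and most of the difference lay in high-NaCl library 1. The log2 fold change was 0.36 ± 0.29 (95% interval -0.28 to 1.0, adjusted p = 0.557 in edgeR).

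Among the regulatory subunits, Prkar1a (chromosome 11, 109649405 to 109669656) measured 12.3, 12.2 and 11.8 CPM against 10.7, 11.5 and 11.3 CPM. It varied least of the 8 genes between libraries, and its diets did not overlap. The difference was small, at a log2 fold change of 0.12 ± 0.15 (95% interval -0.21 to 0.44, adjusted p = 0.724 in edgeR). In all, 4 of the 8 genes had diets that did not overlap (Avpr1a, Avpr2, Prkacb and Prkar1a), beside 23.9% of all tested genes.

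The reads of Prkar1a came almost entirely from 1 first exon. The 125 bases of untranslated sequence in uc007mcu.1, from 109650949 to 109651073, held 2866 of its 2948 reads (97.2%). A stretch of 278 intronic bases in uc007mct.2 held the other 82, 28 in low-NaCl and 54 in high-NaCl libraries (log2 fold change -0.91 ± 0.48 when tested alone, adjusted p = 0.377 in edgeR). The window upstream of the counted first exon is the only one, among those of 19 RefSeq starts of 9 of the genes (all but Adcy6), that held the full cAMP response element. It is shown for that reason, at chr11:109650699-109650948 on the plus strand of GRCm38.p6, with the element and a separate core in capitals. Prkar1a itself did not pass the test.
Prkar1a: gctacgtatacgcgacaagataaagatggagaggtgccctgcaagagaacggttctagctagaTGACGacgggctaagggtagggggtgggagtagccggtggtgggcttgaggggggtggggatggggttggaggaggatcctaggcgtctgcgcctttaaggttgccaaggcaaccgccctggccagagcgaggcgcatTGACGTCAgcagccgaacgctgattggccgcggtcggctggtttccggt

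Prkar2b (chromosome 12, 31958476 to 32061296, minus strand), a type II regulatory subunit, had 123 reads, all on the 1660 bases of 3′ untranslated region in uc007nhy.1. It measured 0.298, 0.501 and 0.896 CPM against 0.467, 0.421 and 0.319 CPM, with low-NaCl library 3 apart from the rest. The log2 fold change was 0.49 ± 0.47 (95% interval -0.57 to 1.54, adjusted p = 0.636 in edgeR), and it was -0.01 without low-NaCl library 3. The log2 ratio of Prkaca to Prkacb was 7.11 ± 0.05 and 7.58 ± 0.63, and that of Prkar2b to Prkar1a -4.53 ± 0.80 and -4.77 ± 0.30. Both ratios overlapped between the diets (two-sided exact permutation p = 0.2 and 0.8).

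**Figure D4:**
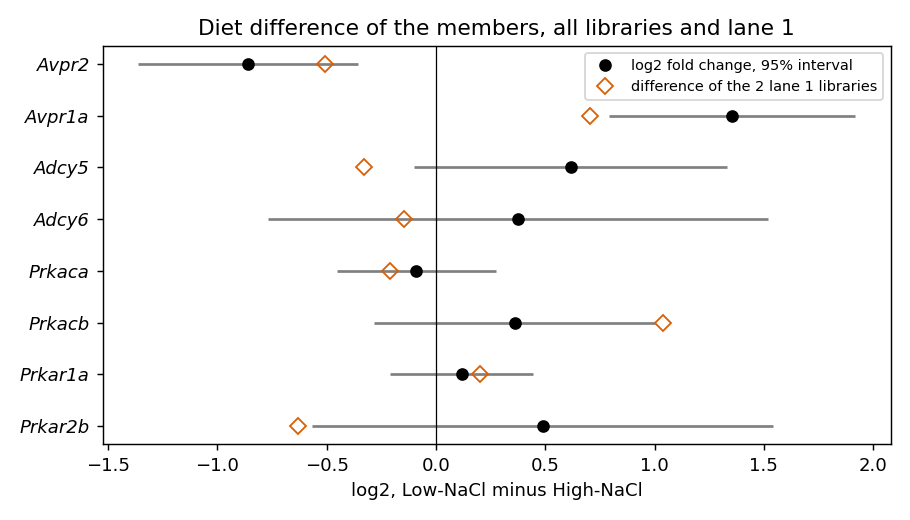
Log2 difference between the diets (x axis, low-NaCl minus high-NaCl) for each tested gene; black points are fitted log2 fold changes with 95% intervals, open diamonds the difference of the lane 1 libraries. The intervals of Avpr1a and Avpr2 leave out 0, and the lane 1 diamonds of Adcy5, Adcy6 and Prkar2b lie on the other side of 0 from the fitted value.

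The 4 further PKA subunits and inhibitors tested, of 6 in the list, gave 0 calls in edgeR and none at an unadjusted p under 0.05. Prkar2a, the other type II regulatory subunit and fully countable, measured 38.6 ± 4.47 and 31.1 ± 3.49 CPM (adjusted p = 0.298). Prkx, a kinase related to the catalytic subunits, measured 15.0 ± 0.421 and 13.0 ± 1.86 CPM (adjusted p = 0.539).

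Of the 18 A-kinase anchoring proteins, which tether PKA near its substrates, 10 were tested, and 1 was called higher and 0 lower. Their median log2 fold change was 0.19, beside -0.00 for all genes tested, of which 1.70% were called in each direction. Akap13, one of the larger anchoring proteins, rose from 27.4 ± 2.01 CPM on the high-NaCl to 42.8 ± 2.71 CPM on the low-NaCl diet (log2 fold change 0.64 ± 0.13, adjusted p = 0.0301 in edgeR). Its adjusted p was 0.0642 to 0.114 when any library except high-NaCl library 2 was left out.

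Upstream of the cyclases, 12 of 27 other receptors that couple to cAMP were tested. There 1 was called higher on the low-NaCl diet and 1 lower, beside 1.70% of all tested genes in each direction. The median was 0.61, and 11 of the 12 had a positive change. The list holds receptors that raise cAMP and receptors that lower it, and it was not split by this. These values therefore give no direction for cAMP. At an unadjusted p under 0.05 in edgeR 7 were higher, beside 964 of all 10521 genes tested. One of the 7, Adra2b, measured 0.273, 0.592 and 0.448 CPM against 0.137, 0.0383 and 0 CPM. It could pass the filter on low counts only through the low-NaCl libraries, where it was higher. Its place among the 7 and the 11 is therefore no test of a diet difference. Adora2b, the low-affinity adenosine receptor that stimulates cyclase, measured 8.42, 10.9 and 9.03 CPM against 3.55, 4.86 and 2.90 CPM (log2 fold change 1.32 ± 0.23, adjusted p = 0.0193 in edgeR). Its libraries separated the diets, and low-NaCl library 1 was the lowest of its diet, as it was for Avpr1a.

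The receptor that fell was Ptger1, which encodes the prostaglandin EP1 receptor. It couples mainly to calcium and was listed with the other prostaglandin receptors. It measured 23.8, 19.4 and 19.6 CPM against 37.2, 33.6 and 40.9 CPM (log2 fold change -0.83 ± 0.14, adjusted p = 0.0196), with 30.8% of its bases countable. The adjusted p rose above 0.05 without low-NaCl library 2, low-NaCl library 3 or high-NaCl library 3 for Ptger1 (0.0826 to 0.0969). It did so without low-NaCl library 2, high-NaCl library 1 or high-NaCl library 3 for Adora2b (0.0647 to 0.0811).

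The intercalated and principal cell marker sums given above moved with these receptors too, and their part was not tested. With total-count scaling, Adora2b, Ptger1, Akap13 and Sik1 had adjusted p-values of 0.0575 to 0.0771 in edgeR, so each of these 4 calls ended. Each also ended with lane as a term, a fit that takes the diet difference from the lane 1 pair alone. Their log2 fold changes there were 1.25, -0.65, 0.78 and 0.37, beside 1.32, -0.83, 0.64 and 0.77 without the lane term.

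The hormone side was scarcely represented. Of 5 further receptors, hormones and a peptidase of the vasopressin and oxytocin family, 2 were tested and 0 called in edgeR, also at an unadjusted p under 0.05. Lnpep, the aminopeptidase that cleaves vasopressin and oxytocin, measured 68.8 ± 8.63 and 59.8 ± 11.5 CPM, and the oxytocin gene Oxt 0.308 ± 0.0656 and 0.313 ± 0.116 CPM. Avpr1b and Avp, both fully countable, had no counted read.

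G protein subunits gave 0 calls among 12 tested of 16 in edgeR, with 1 higher at an unadjusted p under 0.05 and a median of 0.12. Of the 12, 8 were at least 50% countable. Gnas, which encodes the stimulatory subunit, was 19.3% countable and measured 0.349 ± 0.0667 and 0.298 ± 0.0255 CPM, and Gnb1 had no counted read. The lack of calls therefore says little about these genes. Gnaq, the subunit through which the V1a receptor signals, measured 51.6 ± 2.55 and 39.1 ± 2.55 CPM (log2 fold change 0.40 ± 0.12, adjusted p = 0.115). Gnao1 measured 0.971 ± 0.0292 and 0.590 ± 0.153 CPM (adjusted p = 0.295). Among 5 tested of 13 receptor kinases, arrestins and RGS proteins, 0 were called, with 1 higher and 1 lower at an unadjusted p under 0.05. Rgs2, which speeds the shut-off of Gq, measured 116 ± 20.7 and 64.7 ± 22.2 CPM (log2 fold change 0.84 ± 0.23, adjusted p = 0.0868), and Grk4, a receptor kinase, 2.04 ± 0.126 and 3.15 ± 0.175 CPM (adjusted p = 0.139).

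Phosphodiesterases, which break down cAMP, gave 0 calls among 10 tested of 16 in edgeR, with 2 lower at an unadjusted p under 0.05 and a median of -0.31. Only 2 of the 10 tested were at least 50% countable, so the lack of calls says little about this list. Pde3b measured 42.2 ± 7.28 and 56.1 ± 7.41 CPM and Pde4d 0.373 ± 0.107 and 0.794 ± 0.313 CPM, each with an adjusted p of 0.216. Of 15 Epac proteins and cAMP-gated channels, 3 were tested and 0 called, also at an unadjusted p under 0.05. The channels Hcn2 and Hcn3 measured 9.05 ± 1.03 and 11.4 ± 3.23, and 2.53 ± 0.867 and 3.60 ± 0.630 CPM.

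**Figure D5:**
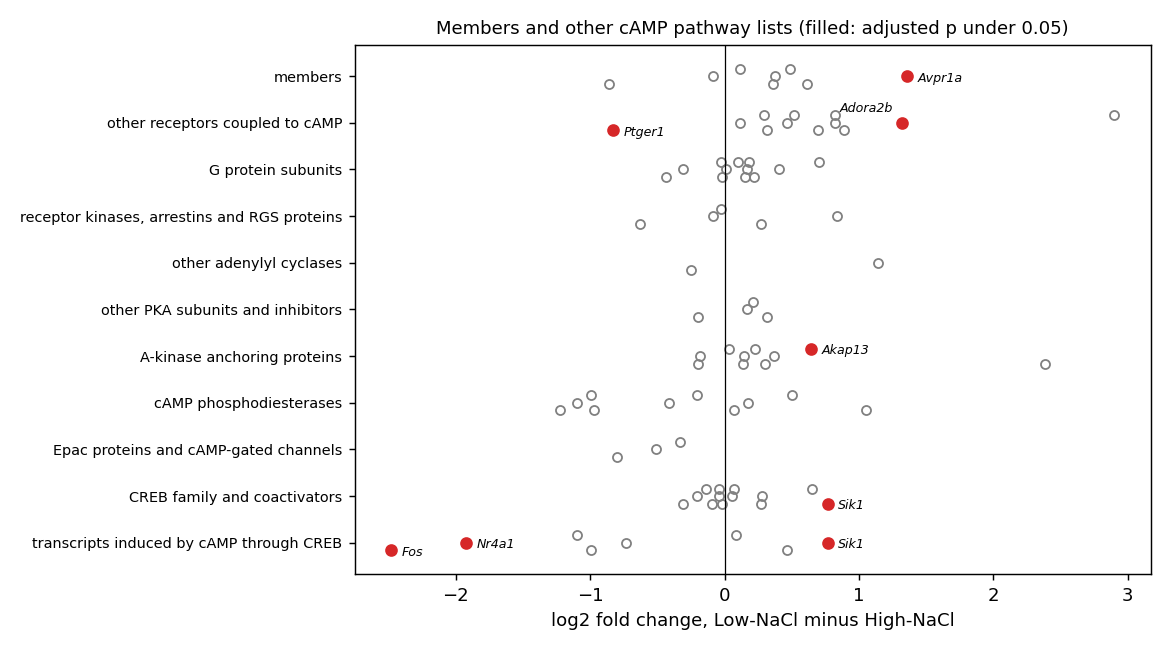
Log2 fold change (x axis, low-NaCl minus high-NaCl) of each tested gene, for the 8 tested vasopressin and cAMP genes and 10 other lists of the pathway (rows); red filled points have an adjusted p under 0.05 in edgeR. Most receptor points lie to the right of 0, and the leftmost points are Fos and Nr4a1.

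At the transcriptional end, 13 of 16 members of the CREB family and its coactivators and regulators were tested. There 1 was called higher and 0 lower, beside 1.70% of all tested genes in each direction, with a median of -0.02. The one called was Sik1, a kinase that cAMP induces and that holds CREB coactivators in the cytoplasm. It rose from 30.5 ± 4.91 CPM on the high-NaCl to 51.9 ± 7.11 CPM on the low-NaCl diet (log2 fold change 0.77 ± 0.16, adjusted p = 0.0363 in edgeR). Its adjusted p was 0.0546 to 0.163 without any of low-NaCl libraries 2 and 3 and high-NaCl libraries 1 and 3.

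Of 15 transcripts known to be induced by cAMP through CREB, 8 were tested, with a median of -0.86. Here 1 was called higher, Sik1, and 2 lower, Fos and Nr4a1, so the called genes did not move one way. Over all tested genes the share called was 1.70% in each direction. Fos measured 85.5 ± 6.32 and 478 ± 163 CPM (log2 fold change -2.48 ± 0.25, adjusted p = 0.0036), and Nr4a1 16.8 ± 5.03 and 64.1 ± 15.3 CPM (-1.93 ± 0.25, adjusted p = 0.0066). Both are also immediate early genes that cell isolation induces. Of the 11 such genes tested, 8 were called lower and 0 higher, and their list summed to 1040 to 1165 CPM in low-NaCl libraries and 2273 to 2931 CPM in high-NaCl libraries. Atf3 of that list had no counted read. The count of 8 became 5 with total-count scaling, 5 without high-NaCl library 3 and 1 with a lane term. With a lane term the adjusted p was 0.127 for Fos and 0.104 for Nr4a1. Their part in the Fos and Nr4a1 values was not tested.

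Of the 11 transport genes that vasopressin regulates, 9 were tested, with a median of -1.27. On the low-NaCl diet 3 were called lower and 1 higher, beside 1.70% of all tested genes in each direction. The 3 called lower are the principal cell markers already given above, so they are not a second result. Aqp4, Scnn1b, Kcnj1 and Elf5 also stand in both lists. The water channels Aqp2 (log2 fold change -1.28 ± 0.23, adjusted p = 0.0224) and Aqp3 (874 ± 160 and 2102 ± 519 CPM, adjusted p = 0.0194) and the sodium channel subunit Scnn1g (303 ± 66.2 and 731 ± 121 CPM, adjusted p = 0.0128) fell, in the same direction as Avpr2. Slc12a1 was higher, at 61.6 ± 3.54 and 32.6 ± 5.71 CPM (log2 fold change 0.92 ± 0.15, adjusted p = 0.0159 in edgeR), with 24.5% of its bases countable. When only identifiers with identical introns were used, its change was -0.10 with an adjusted p of 0.881, so its direction depended on which transcripts were counted. Leaving out low-NaCl library 2 ended the calls of Aqp2, Aqp3, Scnn1g and Slc12a1, as did a lane term (adjusted p = 0.242 to 0.350), and total-count scaling ended that of Aqp3 (adjusted p = 0.0546). Those of Aqp2 and Slc12a1 also ended without low-NaCl library 3, those of Aqp2 and Aqp3 without high-NaCl library 3, and that of Aqp2 without high-NaCl library 1.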

How the data were processed

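RNA of 6 libraries was analysed from the deposited files, which hold raw read counts per UCSC transcript identifier. The authors used featureCounts 1.5.0-p3 over exons of build mm10, per the file headers, with no option set for strand or overlap. The submitters' processing notes name FastQC, Subread and edgeR, and the aligner is not given in the sources used here. In all, 59121 identifiers were matched on the same strand to GENCODE genes by identical introns (41303) or by 50% or more of shared exonic bases (11080), and counts were summed per gene. The other 6738 (5.65% of counts) counted toward library totals alone. Reads that map to several places were not assessed.

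Genes passing filterByExpr were tested with edgeR 4.0.16 (R 4.3.3, limma 3.58.1, Python 3.11.15) by robust glmQLFit and glmQLFTest with TMM factors and no covariate. The biological coefficient of variation was 21.6%. Ratios were tested by exact permutation on log2 CPM with a prior count of 0.5. Floors of 3 counts cover counting error only. The 10 genes and the lists were chosen with earlier results of these data known. Named were all 10, called genes of each pathway list (up to 6, otherwise the 2 of smallest p), the 3 most abundant of each marker list, and the 3 profiles nearest to each receptor. One gene that this rule names is not reported here, and the receptor list is given without it. The procedure was tested on simulated data. Alternatives were other scaling, filters, DESeq2 1.42.0, limma-voom, a replicate block, a lane term, single transcripts, stricter matching, and leaving out each library. Chi-square tests between libraries of a diet gave 34.6 to 221 per degree of freedom, far from that of a library deposited again.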

Additional observations from a re-analysis of the deposited data

How the results depend on the processing

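The count of the 10 genes called higher, 1, became 0 under total-count scaling or a lane term, and was 0 to 1 when 1 library was left out. The count called lower, 0, became 1 (Avpr2) with no filter, with DESeq2 and with the replicate block, and was 0 to 1 when 1 library was left out. Over all genes, 179 higher and 179 lower became 80 and 55 with total-count scaling, 404 and 442 with DESeq2, 1 and 2 with a lane term, and 255 and 274 with no filter. Leaving out 1 library gave 32 to 289 higher and 36 to 247 lower. Median-ratio and upper-quartile scaling, the CPM filter, limma-voom, stricter matching and single transcripts kept both counts within 1.5 times. With the replicate block, 461 genes were higher and 441 lower, and Avpr2 had an adjusted p of 0.026 in edgeR. The correlations of deviations between same-numbered libraries were 0.17, 0.24 and -0.08, and those between differently numbered ones ran from -0.26 to 0.10. With so few libraries these values cannot tell whether the replicate numbers pair the libraries.

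With a lane term the diet difference comes from the lane 1 pair alone. The log2 fold changes of Adcy5, Adcy6 and Prkar2b were then -0.33, -0.14 and -0.64, none past the threshold. The differences within lane 1 were -0.33, -0.15 and -0.63. Leaving out 1 library gave log2 ratio differences of 1.73 to 2.66 for Avpr1a to Avpr2, 0.26 to 0.61 for Avpr2 to Aqp2, -0.68 to -0.11 for Prkaca to Prkacb, -0.21 to 0.031 for Avpr1a to Foxi1, and -0.17 to 0.63 for Prkar2b to Prkar1a. The last pair of ratios turned over without low-NaCl library 1 (0.031) and low-NaCl library 3 (-0.17). The change of Slc12a1 was -0.10 with identical introns only. The only counted identifier of Avpr2 was matched by overlap, so its ratios were not run there. Adcy6 and Prkar2b, with 112 and 123 reads in all, had the widest intervals of the 8 genes.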

Other observations

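The oxytocin receptor gene Oxtr, fully countable and related to the vasopressin receptors, did not pass the filter on low counts and was picked out after its values were seen. It measured 0.174, 1.57 and 2.08 CPM in low-NaCl libraries 1 to 3 and 0.0825, 0.134 and 0 CPM in high-NaCl libraries 1 to 3, so low-NaCl library 1 lay near the high-NaCl libraries. Without the filter it entered the test, with an adjusted p of 0.113 in edgeR. It also passed the filter without low-NaCl library 1, its lowest low-NaCl library, and was called higher there (adjusted p = 0.00574 in edgeR). Without each high-NaCl library it passed the filter and was not called (0.0967 to 0.183). It could pass the filter only through the low-NaCl libraries, where it was higher, so these fits are no test of a diet difference.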
